A study of Mus musculus with 18 samples.

Results

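The endoplasmic reticulum (ER) chaperones described here are 10 mouse genes known from other work as targets of the transcription factor ATF6: Hspa5, Hsp90b1, Hyou1, Dnajb11, Sdf2l1, Calr, Pdia4, Pdia6, Creld2 and Manf. They were picked by symbol, with earlier results of these data known, and all 10 were found among the 23930 genes of the panel and passed the filter on low values. No group altered Atf6 itself, so dependence on it was not tested here. Liver RNA came from mice carrying Yap fl/fl alleles, in 6 groups of 3 libraries each. All mice were injected at 8 weeks of age with an adeno-associated virus that drives its cargo from the hepatocyte promoter TBG, and all received a liquid diet. The cargo was GFP in controls, Cre in knockouts, where Yap is lost from hepatocytes, and YAP-P2A-EGFP in overexpressing mice. The dose was 2e+11 genome copies for GFP and YAP and 5e+10 for Cre, so that knockout and control differed in the amount of virus as well. Starting 2 weeks later the mice had 5 days of acclimation and then 4 weeks of an ethanol diet or of a control diet (pair-fed). The last step was a gavage 9 h before death, with 5 g/kg of ethanol (33% v/v) in the ethanol groups and maltose-dextrin in the pair-fed ones. In what follows the groups are pair-fed or ethanol-fed control, Yap knockout and YAP overexpression, with libraries called replicates 1 to 3.

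The ER folds proteins that are secreted or placed in membranes, and the hepatocyte, which makes most plasma proteins, depends on it heavily. When unfolded proteins build up, the chaperone BiP leaves the sensor ATF6, which moves to the Golgi, is cut by the proteases S1P and S2P, and releases a fragment that enters the nucleus and switches on chaperone genes. Besides ATF6, the unfolded protein response has an IRE1-XBP1 branch, which favours degradation and secretion, and a PERK-ATF4 branch, which limits translation. The nuclear ATF6 fragment acts with the CCAAT-binding factor NF-Y on the ER stress response element (ERSE), a CCAAT box set apart from a CCACG box by a fixed gap.

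The elements themselves are shown because they are what these genes are known to share. RefSeq promoters (build GRCm38.p6), running from 250 bases before to 50 bases after the transcript start, were on hand for 8 of the 10 genes, all but Manf and Hyou1. Each was searched on both strands for the ERSE, which is CCAAT, any 9 bases and then CCACG, and for the shorter ERSE-II, which is ATTGG, any 1 base and then CCACG. The ERSE matched in 5 of the 8 genes with 2 sites in Hsp90b1, and the ERSE-II matched in Dnajb11. The sites are written 5′ to 3′ on the strand of the motif, with the fixed letters in capitals and the gap in lower case:
Hspa5: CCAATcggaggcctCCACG
Hsp90b1, distal: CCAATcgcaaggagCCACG
Hsp90b1, proximal: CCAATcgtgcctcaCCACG
Pdia6: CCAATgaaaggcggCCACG
Creld2: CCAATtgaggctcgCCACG
Calr: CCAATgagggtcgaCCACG
Dnajb11, ERSE-II: ATTGGcCCACG
With the transcript start at 0, the site of Hspa5 began at -65 (chr2:34772025-34772043), that of Pdia6 at -98 (chr12:17266491-17266509) and that of Creld2 at -126 (chr15:88819520-88819538). The sites of Hsp90b1 began at -212 (chr10:86705638-86705656) and -107 (chr10:86705533-86705551), and the one of Calr at -162 (chr8:84847075-84847093). The ERSE-II of Dnajb11 lay just inside the transcript, from 7 to 17 (chr16:22857852-22857862). Those of Creld2 and Calr and the proximal one of Hsp90b1 ran on the strand opposite to their gene. Of all 32851 promoters of this length in the table, 39 held the ERSE (0.119%) and 12 the ERSE-II (0.0365%). The separate boxes were common: CCAAT alone stood in 37.4% and CCACG alone in 32.8% of all promoters, and both stood in 8 of the 8 chaperone promoters, counting those inside an ERSE or ERSE-II. The palindrome-derived ATF6 site TGACGTGG stood in 0.676% of all promoters and in 0 of the 8. The genes are known as ATF6 targets in part because of such elements, so the matches describe the set.

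The bases upstream of the start of 4 of these genes show the elements in place, with matches to the ERSE in capitals and each gene read 5′ to 3′ on its own strand. Hspa5 (chr2:34771840-34772089, plus strand) and Creld2 (chr15:88819396-88819645, plus strand) have 1 element, and Hsp90b1 (chr10:86705445-86705694, minus strand) has 2. Pdia4 (chr6:47813513-47813762, minus strand) has 0 by this spelling and passed the test in 2 of the comparisons below. A part of the element in any change was not tested. The sequences are:
Hspa5: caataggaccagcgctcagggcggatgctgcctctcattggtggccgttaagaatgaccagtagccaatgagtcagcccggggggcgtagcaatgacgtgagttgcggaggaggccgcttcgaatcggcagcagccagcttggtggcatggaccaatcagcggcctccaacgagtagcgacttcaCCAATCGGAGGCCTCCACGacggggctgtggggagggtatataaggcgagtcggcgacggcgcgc
Creld2: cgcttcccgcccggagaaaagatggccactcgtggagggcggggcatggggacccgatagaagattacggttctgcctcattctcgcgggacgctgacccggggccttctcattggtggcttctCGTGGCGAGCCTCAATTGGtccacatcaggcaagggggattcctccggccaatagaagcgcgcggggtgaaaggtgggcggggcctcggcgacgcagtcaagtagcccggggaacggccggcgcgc
Hsp90b1: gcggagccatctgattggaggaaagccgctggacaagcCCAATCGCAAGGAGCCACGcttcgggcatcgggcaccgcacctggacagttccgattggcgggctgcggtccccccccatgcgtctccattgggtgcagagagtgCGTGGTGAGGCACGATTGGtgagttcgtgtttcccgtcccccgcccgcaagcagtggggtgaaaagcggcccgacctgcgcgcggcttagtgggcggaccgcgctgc
Pdia4: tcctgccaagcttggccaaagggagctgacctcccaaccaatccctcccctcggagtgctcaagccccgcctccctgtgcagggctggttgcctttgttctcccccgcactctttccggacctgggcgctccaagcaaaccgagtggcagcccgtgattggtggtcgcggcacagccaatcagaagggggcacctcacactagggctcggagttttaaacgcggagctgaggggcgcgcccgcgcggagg

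Levels are in CPM, which divides reads by the depth of each library. Each gene has 1 amplicon, so that a level is compared between libraries and never between genes. A library held 4.68 to 5.81 M reads, and 3 reads, the limit that a count of 0 allows, came to 0.517 to 0.641 CPM, far below every chaperone level here. Hepatocyte markers were abundant throughout (33939 to 72521 CPM summed over 6 genes), as the tissue label has it. Yap1 RNA followed the genotype in all libraries but pair-fed overexpression replicate 1, where it was 57.6 CPM against 51.5 to 60.7 CPM in the pair-fed controls. Genes of the sex chromosomes split the libraries: Xist stood at 348 to 423 CPM in 5 pair-fed libraries, control replicates 2 and 3 and the 3 knockouts, and at 0 to 2.75 CPM in the other 13, where Ddx3y was 54.0 to 128.8 CPM. Both overexpression groups, the ethanol-fed controls and the ethanol-fed knockouts were alike in this respect. The labels do not say that replicates are separate animals, and p-values measure the spread between libraries only. In whole liver RNA, fewer cells of a type and less RNA per cell cannot be told apart.

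The clearest difference among the chaperones concerned ethanol-fed YAP overexpression. Counted together, reads of the 10 amplicons came to 5894, 6383 and 15041 CPM in its 3 libraries, and to 2662 to 4509 CPM in the other 15. All 10 genes had their highest group mean there, and all 10 had their highest single value in replicate 3 of that group. The sizes of the comparisons with this group move with that library. For the 10 chaperones each is given below with and without it. Medians and counts of positive values for other gene lists include it.

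**Figure D1:**
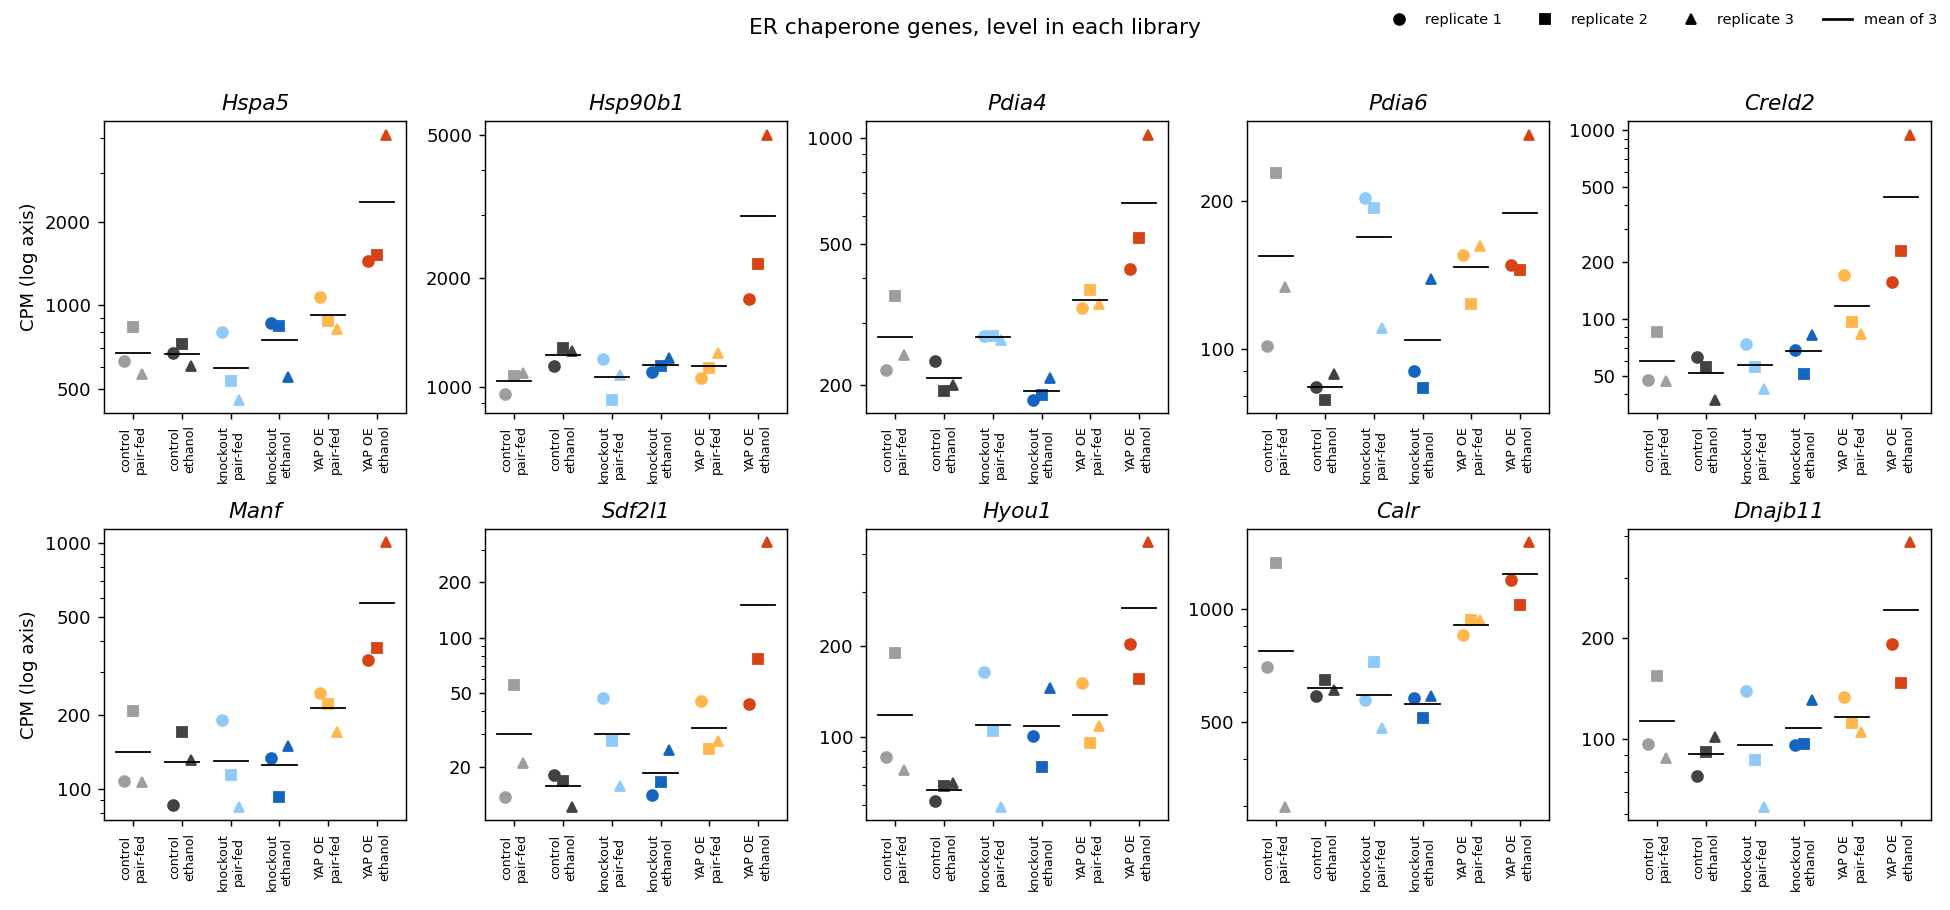
Level in CPM (log axis) of each of the 10 ER chaperone genes in all 18 libraries, 1 panel per gene and 1 column per group (OE, YAP overexpression; KO, Yap knockout), with points for libraries and bars for group means. Replicate 3 of ethanol-fed overexpression is the highest point in all 10 panels, from 273 CPM for Pdia6 to 5019.6 CPM for Hsp90b1.

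Hspa5 encodes BiP (GRP78), the HSP70 of the ER lumen and the chaperone whose release switches the stress sensors on. It stood at 1446, 1516 and 4114 CPM in ethanol-fed overexpression replicates 1, 2 and 3, at 673, 722 and 605 CPM in the ethanol-fed controls and at 863, 842 and 552 CPM in the ethanol-fed knockouts. The pair-fed libraries had 1069, 875 and 818 CPM with overexpression, 629.9, 833 and 563 CPM in controls and 799, 532 and 457 CPM in knockouts. All 3 ethanol-fed overexpression libraries thus lay above each of the other 15, whose highest was pair-fed overexpression replicate 1. The mean of 2359 ± 1521 CPM (SD, n = 3) compared with 667 ± 58.8 CPM in ethanol-fed controls and 920.3 ± 131.4 CPM in pair-fed overexpression. After the ethanol-fed overexpression group, the order of the means was pair-fed overexpression, ethanol-fed knockout (752 ± 174 CPM), pair-fed control (675 ± 141 CPM), ethanol-fed control and pair-fed knockout (596 ± 179.9 CPM), and neighbours among these 5 overlapped.

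The co-factors of BiP had the same library at the top. Hyou1 (GRP170), which exchanges the nucleotide of BiP, stood at 202, 155 and 437 CPM in ethanol-fed overexpression against 61.6, 69.1 and 70.6 CPM in ethanol-fed controls and 100.9, 79.8 and 146 CPM in ethanol-fed knockouts. Pair-fed, it reached 189.6 CPM in control replicate 2 and 164 CPM in knockout replicate 1, both above overexpression replicate 2 on ethanol, and was 59.0 to 151 CPM in the other 7 libraries. Dnajb11 (ERdj3), the J-domain protein that hands clients to BiP, had 192, 147 and 384 CPM in ethanol-fed overexpression, 78.0, 91.7 and 101.5 CPM in ethanol-fed controls and 96.3, 97.2 and 130.7 CPM in ethanol-fed knockouts. Its pair-fed range was 63.1 to 154 CPM, the top value again in control replicate 2, so that only replicates 1 and 3 of ethanol-fed overexpression lay above all other groups. Sdf2l1, a partner of ERdj3, varied most: 44.1, 77.0 and 329 CPM in ethanol-fed overexpression, 18.2, 16.8 and 12.1 CPM in ethanol-fed controls and 14.1, 16.5 and 24.8 CPM in ethanol-fed knockouts. For this gene 3 pair-fed libraries came above replicate 1 of ethanol-fed overexpression, at 55.8 CPM (control replicate 2), 47.0 CPM (knockout replicate 1) and 45.2 CPM (overexpression replicate 1).

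Hsp90b1 encodes GRP94, the HSP90 of the ER, which folds integrins and Toll-like receptors. It stood at 1753, 2191 and 5019.6 CPM in ethanol-fed overexpression and between 922 and 1278 CPM in the other 15 libraries. No other chaperone kept so narrow a range outside that group, with group means from 1039 ± 74.9 CPM (pair-fed control) to 1225 ± 73.2 CPM (ethanol-fed control) that overlapped between neighbours. Calr encodes calreticulin, which holds glycoproteins through their sugar chains and stores calcium. It had 1193, 1028 and 1507 CPM in ethanol-fed overexpression, 854, 936 and 934 CPM with overexpression and pair feeding, 588, 649 and 608 CPM in ethanol-fed controls and 581, 513 and 588 CPM in ethanol-fed knockouts. Pair-fed control varied widely (701, 1323 and 297 CPM), and its replicate 2 was the second highest of all 18 libraries. Calr was the chaperone that separated replicate 3 of ethanol-fed overexpression least from replicates 1 and 2.

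The protein disulfide isomerases Pdia4 (ERp72) and Pdia6 (P5) form and rearrange disulfide bonds in the ER. Pdia4 had 424, 521 and 1023 CPM in ethanol-fed overexpression, 331, 372 and 339 CPM with overexpression and pair feeding, 233, 192 and 199.7 CPM in ethanol-fed controls and 182, 186 and 209 CPM in ethanol-fed knockouts. Pair-fed controls (220.3, 357 and 243 CPM) and pair-fed knockouts (275, 275 and 268 CPM) had means between those of pair-fed overexpression and ethanol-fed controls. The pair-fed controls overlapped both of these groups. Its 3 ethanol-fed overexpression libraries were above the other 15. Pdia6 had 148, 145 and 273 CPM in ethanol-fed overexpression, near the 155, 123 and 162 CPM of pair-fed overexpression, and 83.6, 78.8 and 88.8 CPM in ethanol-fed controls. For Pdia6 the pair-fed controls (101.2, 228 and 134 CPM) and pair-fed knockouts (203, 193 and 110.4 CPM) overlapped the ethanol-fed overexpression group, and only replicate 3 stood out.

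Creld2 and Manf encode small ER proteins that are also secreted under stress, the first with a disulfide isomerase activity and the second a growth factor-like protein that binds BiP. Creld2 stood at 157, 228 and 945 CPM in ethanol-fed overexpression, 62.4, 55.8 and 37.3 CPM in ethanol-fed controls and 68.3, 51.2 and 81.8 CPM in ethanol-fed knockouts. Pair-fed overexpression had 169, 96.3 and 83.4 CPM and the other pair-fed libraries 42.5 to 85.4 CPM. Of the 10 genes, Creld2 had the largest difference between overexpression and control on the pair-fed diet (116 ± 46.4 against 59.9 ± 22.1 CPM), but replicate 1 was well above the others and the groups overlapped. Manf stood at 335, 375 and 1009 CPM in ethanol-fed overexpression, 246, 222 and 171 CPM with overexpression and pair feeding, 86.4, 169.9 and 131.2 CPM in ethanol-fed controls and 134, 93.0 and 149.6 CPM in ethanol-fed knockouts. The remaining pair-fed libraries were at 84.5 to 208 CPM, and no library outside ethanol-fed overexpression passed 246 CPM.

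Overexpression was compared with control among ethanol-fed mice. All 10 chaperones had their 3 overexpression libraries above the 3 controls, which held for 7.43% of the 11720 genes tested. Of the 10, 4 rose at a limma adjusted p under 0.05 (Benjamini-Hochberg over all genes), where 0.0683% of all genes did so. They were Creld2 (log2 fold change 2.65 ± 0.46 SE, adjusted p = 0.0336), Manf (2.01 ± 0.38, adjusted p = 0.0460), Hspa5 (1.65 ± 0.31, adjusted p = 0.0467) and Pdia4 (1.55 ± 0.24, adjusted p = 0.0153). The other 6 did not pass: Sdf2l1 at 2.67 ± 0.56, Hyou1 at 1.82 ± 0.39, Dnajb11 at 1.29 ± 0.31, Hsp90b1 at 1.13 ± 0.26, Pdia6 at 1.10 ± 0.30 and Calr at 1.00 ± 0.33, with adjusted p from 0.0743 to 0.303. The median of the 10 was 1.60, and that of all genes tested 0.00. Without replicate 3 of ethanol-fed overexpression the count of calls was 0, the median 1.16 and the 10 values 0.68 to 1.88, with the lowest adjusted p at 0.0547 (Pdia4). The count was also 0 without ethanol-fed control replicate 2, 1 (Pdia4) without ethanol-fed control replicate 1 or 3, and 6 without overexpression replicate 1, with all 10 values positive each time; with no filter on low values, or a fit to the 6 libraries compared, it was 0.

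Against ethanol-fed knockouts, ethanol-fed overexpression gave the longer list of changes. All 10 chaperones had their 3 overexpression libraries above the 3 knockouts, against 8.94% of all genes tested. Higher by limma were 6 of the 10, with 0.529% of all genes called higher: Pdia4 (1.66 ± 0.24, adjusted p = 0.00230), Manf (2.02 ± 0.38, adjusted p = 0.00958), Creld2 (2.28 ± 0.46, adjusted p = 0.0138), Hspa5 (1.496 ± 0.31, adjusted p = 0.0181), Hsp90b1 (1.22 ± 0.26, adjusted p = 0.0201) and Sdf2l1 (2.47 ± 0.56, adjusted p = 0.0276). Hyou1 (1.18 ± 0.39), Calr (1.13 ± 0.33), Dnajb11 (1.04 ± 0.31) and Pdia6 (0.82 ± 0.30) did not pass. The median was 1.36 against -0.05 over all genes. Without overexpression replicate 3, Pdia4 (1.29 ± 0.19, adjusted p = 0.00800) and Creld2 (1.51 ± 0.34, adjusted p = 0.0481) kept their calls and the median was 0.99. Without knockout replicate 2, Hspa5 and Pdia4 did. This comparison shares its overexpression libraries with the one before. The barcode numbers of the libraries fall into 3 ranges, each with 1 library of most groups. Within ranges the median difference of the 10 from knockout was 1.02, 0.98 and 2.17. From control it was 1.18 and 2.48 in the 2 ranges that hold ethanol-fed controls. The positive signs were fixed beforehand, since every overexpression library lay above every knockout and control library. They therefore do not test an effect of barcode range.

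The ethanol response within overexpressing mice was smaller. The 3 ethanol-fed libraries lay above the 3 pair-fed ones for 7 of the 10 chaperones, and for 7.83% of all genes tested. Only Hsp90b1 rose by the test (1.23 ± 0.26, limma adjusted p = 0.0279), with 0.401% of all genes called higher. Values for the others were 1.69 ± 0.56 for Sdf2l1, 1.54 ± 0.46 for Creld2, 1.25 ± 0.38 for Manf, 1.19 ± 0.31 for Hspa5 and 1.03 ± 0.39 for Hyou1, and 0.31 to 0.92 for Dnajb11, Pdia4, Calr and Pdia6. The median was 1.11 against -0.07 over all genes. The call of Hsp90b1 was lost without overexpression replicate 2 or 3 on ethanol or any 1 of the 3 pair-fed libraries, replicate 1 with its low Yap1 among them. Without ethanol-fed replicate 3 the median was 0.65, Hsp90b1 was at 0.78 ± 0.18 and Pdia6 at 0.01 ± 0.30, while without ethanol-fed replicate 1 there were 4 calls.

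In control and knockout mice ethanol left the chaperones without a call. In controls 9 of the 10 log2 changes were negative, from -0.79 ± 0.30 for Pdia6 to 0.24 ± 0.26 for Hsp90b1, with a median of -0.23 against -0.09 over all genes and 0 of 10 called at an adjusted p under 0.05 (2.7% of all genes tested). Pdia6 and Hyou1 were lower in all 3 ethanol-fed controls than in all 3 pair-fed ones, and Hsp90b1 was higher, arrangements seen in 14.4% and 7.69% of all genes. At an unadjusted p under 0.05 the count was 1 of 10, against 18.1% of all genes, and edgeR and DESeq2 called 0. In knockouts the changes ran from -0.68 ± 0.30 for Pdia6 to 0.35 ± 0.31 for Hspa5 (median 0.04, 0 of 10 called, 9.9% of all genes tested), with 2 of 10 at an unadjusted p under 0.05 (26.1% of all genes) and 0 by edgeR or DESeq2. Sdf2l1 was at -0.68 ± 0.56 in controls and -0.59 ± 0.56 in knockouts. The pair-fed controls and knockouts in these comparisons hold the libraries with Xist, and their replicates spread widely: control replicate 2 had the highest value of its group for 9 of the 10 chaperones, and knockout replicate 1 for 8. The negative values in controls rest on control replicate 2: without it the median was 0.03 with 5 of 10 positive. A fit that adjusts for sex chromosome genes gave 0.00 and 5 positive, with the pair-fed control level set by replicate 1 alone. In knockouts, where every pair-fed library was high in Xist and every ethanol-fed one in Ddx3y, the median was -0.23 to 0.26 with 1 library left out and 0.47 in that fit.

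**Figure D2:**
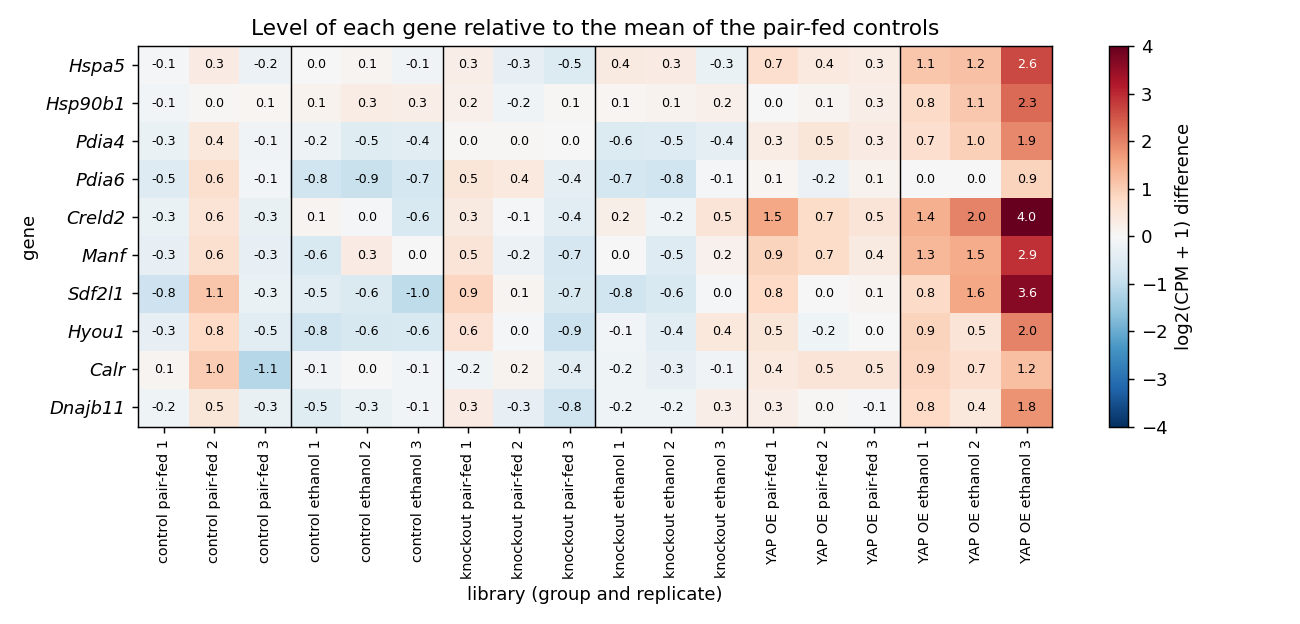
Level of each of the 10 ER chaperone genes (rows) in each of the 18 libraries (columns) as the difference in log2(CPM + 1) from the gene's mean over the 3 pair-fed controls, with the value in each cell. Replicate 3 of ethanol-fed YAP overexpression runs from 0.90 (Pdia6) to 4.01 (Creld2), replicates 1 and 2 from -0.01 (Pdia6) to 1.97 (Creld2), and pair-fed control replicate 2 is above 0 for all 10 genes.

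The other comparisons called 0 of the 10. Knockout against control gave medians of -0.08 pair-fed and 0.18 ethanol-fed, and 0 of 10 called in each (0.00853% and 0.0171% of all genes). The sign was not fixed: leaving out 1 library gave medians of -0.26 to 0.24 pair-fed, the highest without control replicate 2 (8 of 10 positive), and 0.02 to 0.22 ethanol-fed. At an unadjusted p under 0.05 the count was also 0 in both, against 3.13% and 8.34% of all genes, and edgeR and DESeq2 called 0. Overexpression against control on the pair-fed diet gave a median of 0.34 with 9 of 10 positive, from 0.00 for Pdia6 to 0.94 ± 0.46 for Creld2 (0 of 10 called, 0.145% of all genes). There were 0 at an unadjusted p under 0.05, against 8.46% of all genes, and 0 by edgeR or DESeq2. Leaving out pair-fed overexpression replicate 1, whose Yap1 matched the controls, gave a median of 0.27, and leaving out pair-fed control replicate 2 gave 0.60. The test of whether ethanol acted differently in overexpressing and control mice, the interaction, was positive for all 10 (median 1.198, from 0.52 ± 0.47 for Calr to 2.37 ± 0.79 for Sdf2l1). None passed (adjusted p 0.323 to 0.903, 0% of all genes called). At an unadjusted p under 0.05 stood 9 of the 10, against 7.23% of all genes, and edgeR and DESeq2 called 0 of the 10. Without replicate 3 of ethanol-fed overexpression the interaction median was 0.81, and with any 1 library left out it was 0.81 to 1.46. The interaction also uses the pair-fed controls, of which replicates 2 and 3 were high in Xist. Replicate 2 of these controls was the highest of its group for 9 of the 10 chaperones. A different ethanol response of the chaperones by genotype was therefore not shown after adjustment. The interaction of ethanol with knockout had a median of 0.11 and 0 of 10 at an unadjusted p under 0.05 (5.68% of all genes), with 0 called by limma, edgeR or DESeq2.

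**Figure D3:**
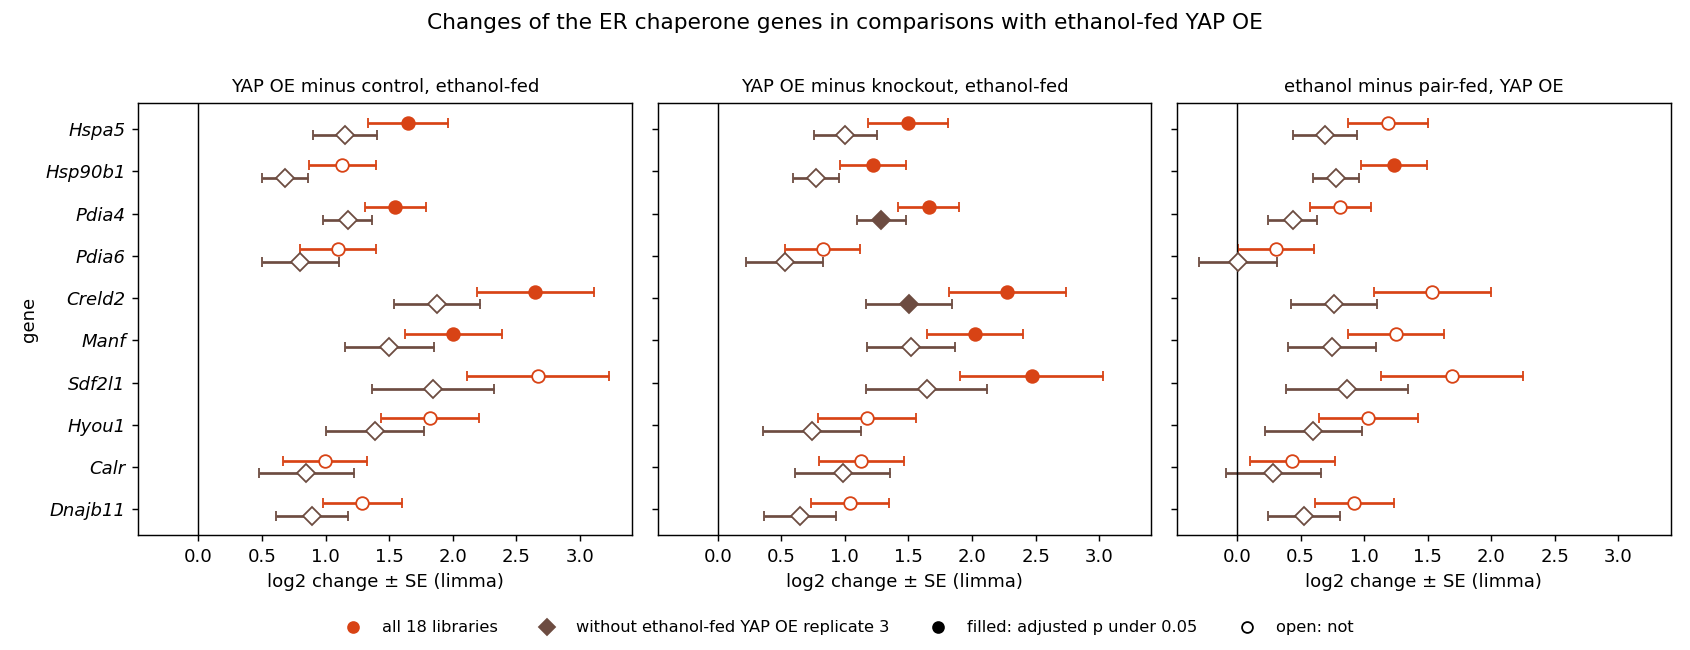
Log2 fold change with its standard error for the 10 ER chaperone genes in the 3 comparisons that involve ethanol-fed YAP overexpression (OE), with all 18 libraries and without replicate 3 of that group, and marks for genes past an adjusted p of 0.05. Leaving out the library lowers each value, and the median falls from 1.60 to 1.16 against control, from 1.36 to 0.99 against knockout and from 1.11 to 0.65 for ethanol within overexpression.

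The spread within ethanol-fed overexpression was itself graded across the genes. Replicate 3 over the mean of replicates 1 and 2 was 5.44-fold for Sdf2l1, 4.91-fold for Creld2, 2.84-fold for Manf, 2.78-fold for Hspa5, 2.55-fold for Hsp90b1 and 2.45-fold for Hyou1. It was 2.27-fold for Dnajb11, 2.17-fold for Pdia4, 1.86-fold for Pdia6 and 1.36-fold for Calr. The largest ratios belonged to a partner of ERdj3 and to a secreted ER protein, and the smallest to the lectin chaperone. On the log2 scale the difference was 0.44 to 2.48 (median 1.33), against a median of 0.01 over all genes tested. It was over 1 for 8 of the 10 chaperones and for 1.68% of all genes, and replicate 3 was above both others in 34.5% of all genes. Replicates 1 and 2 differed from each other by -0.38 to 0.79 over the 10 genes.

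Replicates 1 and 2 alone still stood apart from the ethanol-fed controls. Their mean was 3.85-fold that of the controls for Sdf2l1, 3.71-fold for Creld2, 2.75-fold for Manf and 1.61-fold for Hsp90b1, the lowest of the 10. Against pair-fed overexpression the ratio was 1.00 for Pdia6 and 1.22 to 1.85 for the other 9 genes. Hspa5, Hsp90b1, Pdia4 and Manf were the 4 chaperones with all 3 ethanol-fed overexpression libraries above the other 15, an arrangement found in 0.427% of all genes tested.

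Replicate 3 did not stand apart in Yap1, Atf6, Xbp1 or Ddit3. It was highest for Atf6b, a gene of the sensor list below. Atf6b was 19.1, 17.5 and 29.5 CPM in replicates 1, 2 and 3, against 7.73 to 21.8 CPM in the other 15 libraries. Yap1 was 143.7, 115.3 and 106.4 CPM in ethanol-fed overexpression replicates 1, 2 and 3. Atf6 was 140.1, 113.7 and 160.0 CPM, within the 74.4 to 195 CPM of the other 15 libraries, and its level was highest in the ethanol-fed knockouts (195, 175 and 170.4 CPM). Xbp1, the transcription factor of the IRE1 branch, was 531, 599 and 609 CPM. Ddit3 (CHOP), the death-promoting factor of the PERK branch, was 9.75, 20.999 and 24.1 CPM against 125.6, 153 and 6.71 CPM in ethanol-fed knockout replicates 1, 2 and 3, so that the knockouts lay on both sides. RNA levels of Atf6 and Xbp1 do not report the cutting of the ATF6 protein or the splicing of Xbp1.

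The rest of the unfolded protein response was examined by lists. Of 10 tested ER stress sensors and genes that process or partner ATF6, 0 were called in any comparison with ethanol-fed overexpression. Their medians were 0.12 against control, -0.17 against knockout and 0.03 for ethanol. Few of all 11720 genes were called there: 8 higher and 4 lower against control, 62 and 158 against knockout, and 47 and 88 for ethanol. A count of 0 in this list or those below therefore says little. Atf6 rose with ethanol in knockouts (0.94 ± 0.18, limma adjusted p = 0.00277, with 4.1% of all genes called higher). In knockouts diet and the split by sex chromosome genes coincide, so this rise cannot be told apart from that split. A term for those genes is set only by pair-fed control replicate 1 against replicates 2 and 3. The fit with it thus rests on 1 library and cannot decide whether a call holds. With that term Atf6 was at 0.62. Of 36 other tested ER folding genes, 28 were positive against control (median 0.34), and Pdia5, a disulfide isomerase, rose (1.10 ± 0.20, adjusted p = 0.0352). Pdia5 had 288, 354 and 451 CPM in ethanol-fed overexpression and 129.4 to 212 CPM in the other 15 libraries. It also rose against knockout (1.01 ± 0.20, adjusted p = 0.0117) and with ethanol in overexpression (1.03 ± 0.20, adjusted p = 0.0171), and was 0.93, 0.85 and 0.86 in the 3 comparisons without replicate 3 (adjusted p 0.191, 0.0688 and 0.0950). Against knockout, where 0.529% of all genes were called higher, 3 more of this list rose. They were Mlec, a lectin for immature glycoproteins (1.16 ± 0.24), Pdia3, the partner of calreticulin (1.09 ± 0.24), and Sep15, a selenoprotein of the folding cycle (0.78 ± 0.18). Without replicate 3 these 3 lost their calls (adjusted p 0.0819 to 0.127).

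Of 23 tested genes of XBP1 and ER-associated degradation, 21 were positive in ethanol-fed overexpression against control (median 0.25). The test called 0 of them, and 0.0683% of all genes higher. Against knockout Sel1l, the scaffold of the degradation complex, rose (0.96 ± 0.23, adjusted p = 0.0357), from 279, 261 and 180.2 CPM to 399, 332 and 739 CPM, and lost its call without replicate 3 (0.62 ± 0.19, adjusted p = 0.158). Xbp1 itself rose with ethanol in all 3 genotypes: 0.93 ± 0.15 in controls (adjusted p = 0.00402), 1.16 ± 0.15 in knockouts (adjusted p = 0.000221) and 0.86 ± 0.15 in overexpression (adjusted p = 0.0118). With a term for sex chromosome genes, which rests on pair-fed control replicate 1, the values were 0.75 in controls and 0.89 in knockouts. That fit cannot decide whether the calls in controls and knockouts hold. Without ethanol-fed replicate 3 the value in overexpression was 0.82 ± 0.17 (limma adjusted p = 0.0548). Xbp1 and the chaperones thus had different patterns over the 6 groups, with Xbp1 at 446 to 609 CPM in every ethanol-fed library and 204 to 337 CPM in every pair-fed one.

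Values for targets of PERK and ATF4 were mostly negative. Of 17 tested, 2 were positive in ethanol-fed overexpression against control (median -0.61, 0 called) and 1 against knockout (median -1.23). Atf3 (-4.20 ± 0.76, limma adjusted p = 0.00760), Trib3 (-3.31 ± 0.60, adjusted p = 0.00773) and Sesn2 (-1.53 ± 0.38, adjusted p = 0.0426) were lower than in knockouts, in which Atf3 and Trib3 varied widely (119 ± 86.8 and 76.8 ± 59.5 CPM), with 1.35% of all genes called lower. Without replicate 3 Atf3 and Trib3 kept their calls and Sesn2 did not (adjusted p = 0.122). With ethanol 6 of the 17 rose in knockouts (4.1% of all genes), among them Trib3, Asns, Atf3 and Psat1, and 2 rose in controls (Gdf15 and Fgf21; 1.02% of all genes). With a term for sex chromosome genes, which rests on pair-fed control replicate 1, log2 changes were 1.35 to 5.15 in knockouts and 3.09 and 3.31 in controls. That fit cannot decide whether these 8 calls hold. Heat shock genes of the cytosol report folding stress outside the ER. Of 13 listed, 8 were on the panel, without Hspa8 and Hsp90aa1 among others, and 7 were tested. The 7 include Hspe1, whose protein is mitochondrial. Among them Hsph1 (HSP110) rose against control (1.81 ± 0.24, adjusted p = 0.00406), where 0.0683% of all genes were called higher. It also rose against knockout (2.41 ± 0.24, adjusted p = 2.60e-05), where 0.529% were. Hsph1 had 192, 286 and 377 CPM in ethanol-fed overexpression and 284, 214 and 166 CPM in pair-fed overexpression, so that the diets overlapped. Chordc1, a partner of HSP90, rose against knockout (0.92 ± 0.19, adjusted p = 0.0174). Without replicate 3 of ethanol-fed overexpression Hsph1 kept its call against knockout, and those of Hsph1 against control (adjusted p = 0.0547) and of Chordc1 (adjusted p = 0.0916) were lost.

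Of 19 tested YAP-TEAD targets, 0 were called in ethanol-fed overexpression against control (median -0.10), where 8 of all 11720 genes were called higher and 4 lower. Ctgf (-1.97 ± 0.42, limma adjusted p = 0.0279), Amotl2 (-1.25 ± 0.27, adjusted p = 0.0306) and Cyr61 (-1.16 ± 0.25, adjusted p = 0.0306) fell with ethanol within overexpression (3 of 19, against 0.751% of all genes called lower), and without ethanol-fed replicate 3 these calls were lost (adjusted p 0.111 to 0.148). With ethanol 1 of the 19 fell in controls (Amotl2, with 1.67% of all genes) and 4 in knockouts (Amotl2, Axl, Igfbp3 and Myof, with 5.79% of all genes). With a term for sex chromosome genes, which rests on pair-fed control replicate 1, log2 changes were -1.54 in controls and -1.53 to -0.75 in knockouts. That fit cannot decide whether these 5 calls hold. Dock5 was lower against knockout (-0.80 ± 0.20, adjusted p = 0.0422), a call lost without replicate 3 (adjusted p = 0.134). Cyr61, a secreted matrix protein, was higher with overexpression on the pair-fed diet (1.37 ± 0.25, adjusted p = 0.0279), at 15.7, 29.9 and 24.8 CPM against 8.93, 7.48 and 8.22 CPM in controls, with 0.0597% of all genes called higher. With the term for sex chromosome genes the value was 1.26, and that fit cannot decide whether this call holds either.

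**Figure D4:**
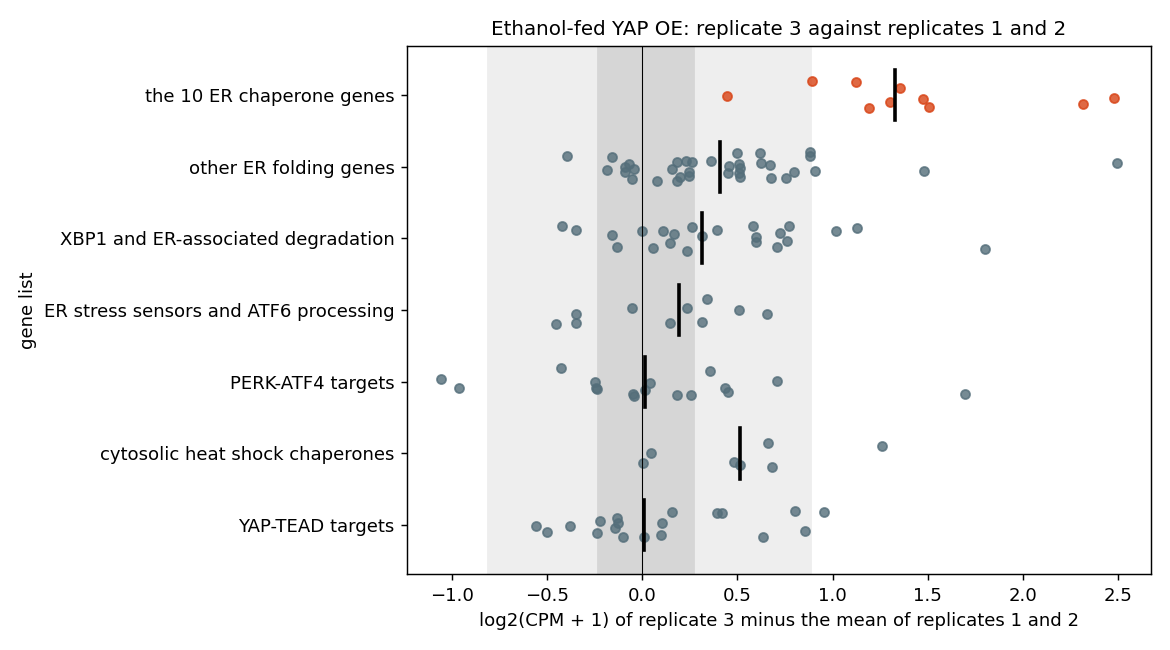
Log2 difference of ethanol-fed YAP overexpression replicate 3 from the mean of replicates 1 and 2, 1 point per gene and 1 row per gene list, with a black bar at each list's median; the light band holds the central 95% and the dark band the central 50% of all genes tested. The 10 ER chaperones have a median of 1.33, other ER folding genes 0.41, XBP1 and degradation genes 0.31 and PERK-ATF4 targets 0.02.

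Replicate 3 was also compared over these lists. Its median log2 difference from replicates 1 and 2 was 0.41 over the 36 other ER folding genes, 0.31 over the 23 genes of XBP1 and degradation, 0.51 over the 7 heat shock genes, 0.19 over the sensors, 0.02 over the PERK-ATF4 targets and 0.01 over the YAP-TEAD targets. Markers of cell types gave the following values beside the chaperones. Hepatocyte markers summed to 35455 to 39947 CPM in ethanol-fed overexpression, 33939 to 39885 CPM with overexpression on the pair-fed diet and 48561 to 62562 CPM in ethanol-fed controls, and their part in the chaperone levels was not tested. Plasma cells carry much ER, and the 8 B and plasma cell markers on the panel summed to 332 to 477 CPM in ethanol-fed overexpression and 336 to 432 CPM in ethanol-fed controls. Sdc1, which hepatocytes express as well, made up most of this sum. Of the 6 tested, 2 were higher in replicate 3 than in the mean of replicates 1 and 2, both by over 1 log2 unit, and the median was -0.33. Mzb1 and Derl3, both proteins of the ER, were 0.361, 0.184 and 2.07 CPM and 0, 0.553 and 1.72 CPM in replicates 1, 2 and 3. Jchain was 0.361, 1.10 and 0.172 CPM, and Tnfrsf17 was 0 in all 3. The part of these cells in the chaperone levels was not tested. Kupffer cell markers summed to 327 to 353 CPM in ethanol-fed overexpression, 248 to 466 CPM in ethanol-fed controls and 145 to 187 CPM in ethanol-fed knockouts.

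Genes outside the list with the most similar pattern were found by correlation with the mean standardised chaperone level over the 18 libraries, among 8447 genes with a mean of at least 5 CPM. The 10 nearest were Pdia3, Tmed3, Serp1, Sec23b, Uggt1, Rint1, Syvn1, Ddost, Rpn1 and Spcs2, with r from 0.85 to 0.94. Pdia3 and Uggt1 serve glycoprotein folding, Ddost and Rpn1 belong to the enzyme that attaches sugar chains, Spcs2 to signal peptidase, Sec23b and Tmed3 to export from the ER, and Syvn1 is the ubiquitin ligase of ER-associated degradation. Without ethanol-fed overexpression replicates 3 and 2, the libraries farthest from the median, r was 0.89 for Pdia3, 0.82 for Serp1, 0.79 for Rpn1 and 0.58 for Syvn1, the lowest of the 10. With that whole group left out r was 0.88 for Pdia3, 0.72 for Serp1, 0.73 for Rpn1, 0.46 for Spcs2 and 0.33 for Syvn1, again the lowest. Syvn1 had 208, 155 and 629 CPM in ethanol-fed overexpression and 64.4 to 163 CPM elsewhere. Among the chaperones, each one's r with the mean of the other 9 was 0.70 (Pdia6) to 0.96 (Sdf2l1). Without ethanol-fed overexpression replicates 3 and 2 it was 0.37 for Hsp90b1 and 0.62 to 0.89 for the other 9. These correlations are descriptions over libraries that share groups and 1 high library.

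The ERSE shown above also occurs in 32 genes outside the list, of which 10 were tested. In ethanol-fed overexpression against control 9 of these 10 were positive, with a median of 0.52 and 0 called. The highest was Syvn1 at 1.53 ± 0.34 (limma adjusted p = 0.0997), followed by Alg12, an enzyme of sugar chain synthesis, at 0.81 ± 0.37 and Spats2l at 0.70 ± 0.35. Canx, the membrane partner of calreticulin, was 0.65 ± 0.21, and Dnajc3, an inhibitor of PERK, 0.58 ± 0.19. The others ran down to Acacb at -0.66 ± 0.65, the only negative value. Against knockout 7 of the 10 were positive (median 0.44), where 45.0% of all genes were. For ethanol within overexpression 8 were positive (median 0.10), against 42.4% of all genes, and both comparisons called 0. Some of the 10 had low levels, with a mean over all libraries of 1.93 CPM for Spats2l and 0.439 CPM for Derl3. All these values include replicate 3 of ethanol-fed overexpression. Tested genes outside the list with the ERSE-II ran from -0.24 to 0.60 against control. Within the 8 chaperones with a promoter entry, those with the ERSE (Hspa5, Hsp90b1, Pdia6, Creld2 and Calr) ran from 1.00 to 2.65 in this comparison, and those without it (Pdia4, Sdf2l1 and Dnajb11) from 1.29 to 2.67.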

How the data were processed

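RNA of 18 liver libraries was measured by the authors with an Ion AmpliSeq mouse transcriptome panel. Per the file headers, the authors made log2(RPM + 1) values with ampliSeqRNA 5.10.1.2. The deposited series table holds CPM scaled to the library total alone, and the log2 values in the deposited per-library files equal log2(CPM + 1) of it (largest difference 1.96e-06). Aligner and genome build: not given in the sources used here. Whole reads were recovered for 100% of values within 0.02 reads.

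The members and lists were chosen with earlier results of these data known. The test covered 11720 genes that reached 1 CPM in 3 or more libraries. One limma 3.58.1 model (lmFit, eBayes with trend, R 4.3.3) with 6 group means was fitted to log2(CPM + 1), which shrinks fold changes at low levels, with 10 two-sided contrasts and Benjamini-Hochberg adjustment over all genes of each. The named genes are the 10 chaperones, at most 4 called members of each other list with the smallest adjusted p in a comparison, and the 10 genes nearest by correlation. Mzb1, Jchain, Sdc1, Tnfrsf17, Derl3, Alg12, Canx, Dnajc3, Spats2l, Acacb and Atf6b were added after their values were seen. Alternatives were pseudocounts of 0.1 and 10, other filters, TMM and quantile scaling, array weights, blocks, a term for sex chromosome genes, edgeR 4.0.16 and DESeq2 1.42.0 run on whole reads, and fits without 1 library at a time. The fits were also run on simulated data, in which changed genes moved alike in all libraries of ethanol-fed overexpression. That simulation held no library like replicate 3, so it cannot show how the calls fare with one. Floors cover counting error only, and each ± is an SD over libraries or a limma SE.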

Additional observations from a re-analysis of the deposited data

How the results depend on the processing

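All 10 chaperone changes kept a positive sign in the comparisons of ethanol-fed overexpression with control, with knockout and with pair-fed overexpression under every alternative run, and 0 of 10 were called under any alternative in the other 7 comparisons. The counts of calls depended on the setting. For ethanol-fed overexpression against control, 4 in the main analysis, the count was 0 with no filter or with the compared groups alone, 1 with quantile scaling or a barcode range block, 2 with a pseudocount of 0.1 or 10 or with a term for sex chromosome genes, 6 over the libraries with Ddx3y above Xist, 7 with array weights and 9 with DESeq2. It ranged from 0 to 6 with 1 library left out. Against knockout, 6 in the main analysis, it was 4 with no filter, 9 with DESeq2 and 10 with array weights, and 2 to 6 with 1 library left out. For ethanol within overexpression, 1 in the main analysis, it was 0 with no filter or with the compared groups alone, 2 with edgeR, 6 with array weights and 7 with DESeq2, and 0 to 4 with 1 library left out. Over the libraries with Ddx3y above Xist, pair-fed control keeps 1 library, whose spread is taken from the other groups. With the term for sex chromosome genes the pair-fed control level rests on that library too. The replicate numbers did not pair the libraries (same-numbered pairs correlated at -0.27 to 0.28, with 6 of 45 above 0.1), and with a replicate block the counts were 1, 6 and 1 in these 3 comparisons. TMM scaling left these counts at 4, 6 and 1, but over all genes it moved the split for ethanol within overexpression from 47 higher and 88 lower to 77 and 50, and against knockout from 62 and 158 to 91 and 140. The cause was not tested. With 3 libraries a group, 1 of them far above the other 2, the size of the chaperone changes is poorly fixed.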
